A study of Homo sapiens with 24 samples.

Results

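The results below describe how the transcriptome of a methionine-independent breast cancer clone and of its parental line diverged during 12 h without methionine. They rest on the 12 libraries, of 24 in the series, that were collected at 0 h and at 12 h, with 3 libraries in each of 4 groups. For every gene the line difference was computed as the 12 h response of the clone minus the 12 h response of the parental line, on the log2 scale, so that a positive value means that the response of the clone was higher. Of the 26645 gene entries other than spike-ins in the count table, 14741 had enough counts to be tested, and no value of the line difference was used to choose them. Enzymes of lipid metabolism and genes of the unfolded protein response (193 of the tested genes) stayed in the fit and in its counts but are not described.

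MDA-MB-468 (MB468) is a line of triple-negative breast carcinoma cells whose growth depends on methionine. MB468res-R8 (R8) is a single clone derived from it that grows when methionine is replaced by its precursor homocysteine, so a difference between R8 and MB468 can belong to this 1 clone. The groups were MB468 at 0 h, MB468 at 12 h, R8 at 0 h and R8 at 12 h. At 0 h both lines were untreated in growth medium with 100 µM methionine (Met+), and at 12 h both had been switched to medium with no methionine and 370 µM DL-homocysteine (Met-Hcy+). Both media were DMEM with dialyzed serum, vitamin B12, glutamine and cysteine. The comparison asks which genes moved differently over these 12 h in the cells that tolerate the switch and in those that do not. None of the libraries analysed here was of cells kept in Met+ for 12 h. Within each line the switch and the time since the medium change therefore cannot be told apart. The line difference cancels an effect of time or fresh medium only where it was equal in both lines.

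Methionine is an amino acid of proteins and the source of S-adenosylmethionine, the methyl donor for DNA, RNA, histones and many small molecules. Cells regenerate methionine from homocysteine through methionine synthase, a vitamin B12 enzyme that takes its methyl group from folate. Many cancer lines stop dividing when homocysteine is the only source of methionine although the enzyme works, a property known as methionine dependence. Growth factor signaling, protein synthesis, protein quality control and the cell cycle are systems that cells adjust when an amino acid or a methyl donor runs short, and the gene groups below follow these systems.

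The 12 libraries held 16111002 to 35060603 gene counts (median 24951059), and the ERCC spike-in RNAs took 0.201% to 0.296% of the counts. Levels below are CPM, counts scaled to a common library total, with totals adjusted by the trimmed mean of M values (TMM), which sets the typical gene to no change. Epithelial markers were present in all 12 libraries, EPCAM at 286 to 437 CPM and KRT8 at 1005 to 2139 CPM. Of the receptors whose low levels define triple-negative cells, PGR reached at most 0.0983 CPM and ESR1 was at 4.16 to 20.6 CPM. ERBB2 was higher, at 38.3 to 94.5 CPM. Of 18 immune cell markers 6 were at 0 in all 12 libraries, and their summed level was 159 to 174 CPM in MB468 at 0 h, 71.6 to 84.4 CPM in MB468 at 12 h, 89.3 to 97.9 CPM in R8 at 0 h and 55.2 to 61.6 CPM in R8 at 12 h. Of 17 fibroblast and endothelial markers 1 was at 0 throughout, and the sums were 293 to 328, 164 to 199, 103 to 121 and 43.1 to 50.4 CPM in the same order. The part that such cells could have in a line difference was not tested. In bulk libraries fewer cells of a state and less RNA per cell cannot be told apart.

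The line difference was called in 8336 of the 14741 tested genes, or 56.5%, at a Benjamini-Hochberg adjusted p under 0.05. The R8 response was higher in 3863 genes (26.2%) and lower in 4473 (30.3%), and 1793 called genes (12.2%) differed at least 2-fold, of which 482 were higher (3.27%) and 1311 lower (8.89%). The 12 h response itself was called in 10430 genes in MB468 (70.8%), of which 5317 rose (36.1%) and 5113 fell (34.7%), and in 9036 in R8 (61.3%), of which 4450 rose (30.2%) and 4586 fell (31.1%). The split between higher and lower depends on the scaling. With library totals set by the spike-in RNAs, 4052 genes were higher and 1745 lower. The share of calls that were higher was thus 69.9%, against 46.3% with TMM. It was 49.2% with the size factors of DESeq2 and 47.3% to 50.9% with TMM when 1 library was left out. The excess of lower calls with TMM was therefore not stable. The median line difference over all genes moved from -0.05 to 0.20 with spike-in scaling. Each list below is therefore read against the median of all genes under the same scaling. A list median that changes sign between the scalings need not have changed relative to all genes.

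The called genes fell into several patterns that share the same libraries and are given as counts. Among the genes with a higher R8 response, 883 fell in MB468 and rose in R8, 1069 fell in MB468 without a call in R8, 815 fell in both lines and 652 rose in R8 alone. Among the genes with a lower R8 response, 823 rose in MB468 and fell in R8, 1405 rose in MB468 without a call in R8, 1060 rose in both lines and 692 fell in R8 alone. The larger groups in both directions were thus genes that moved in MB468 and were not called in R8.

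**Figure D1:**
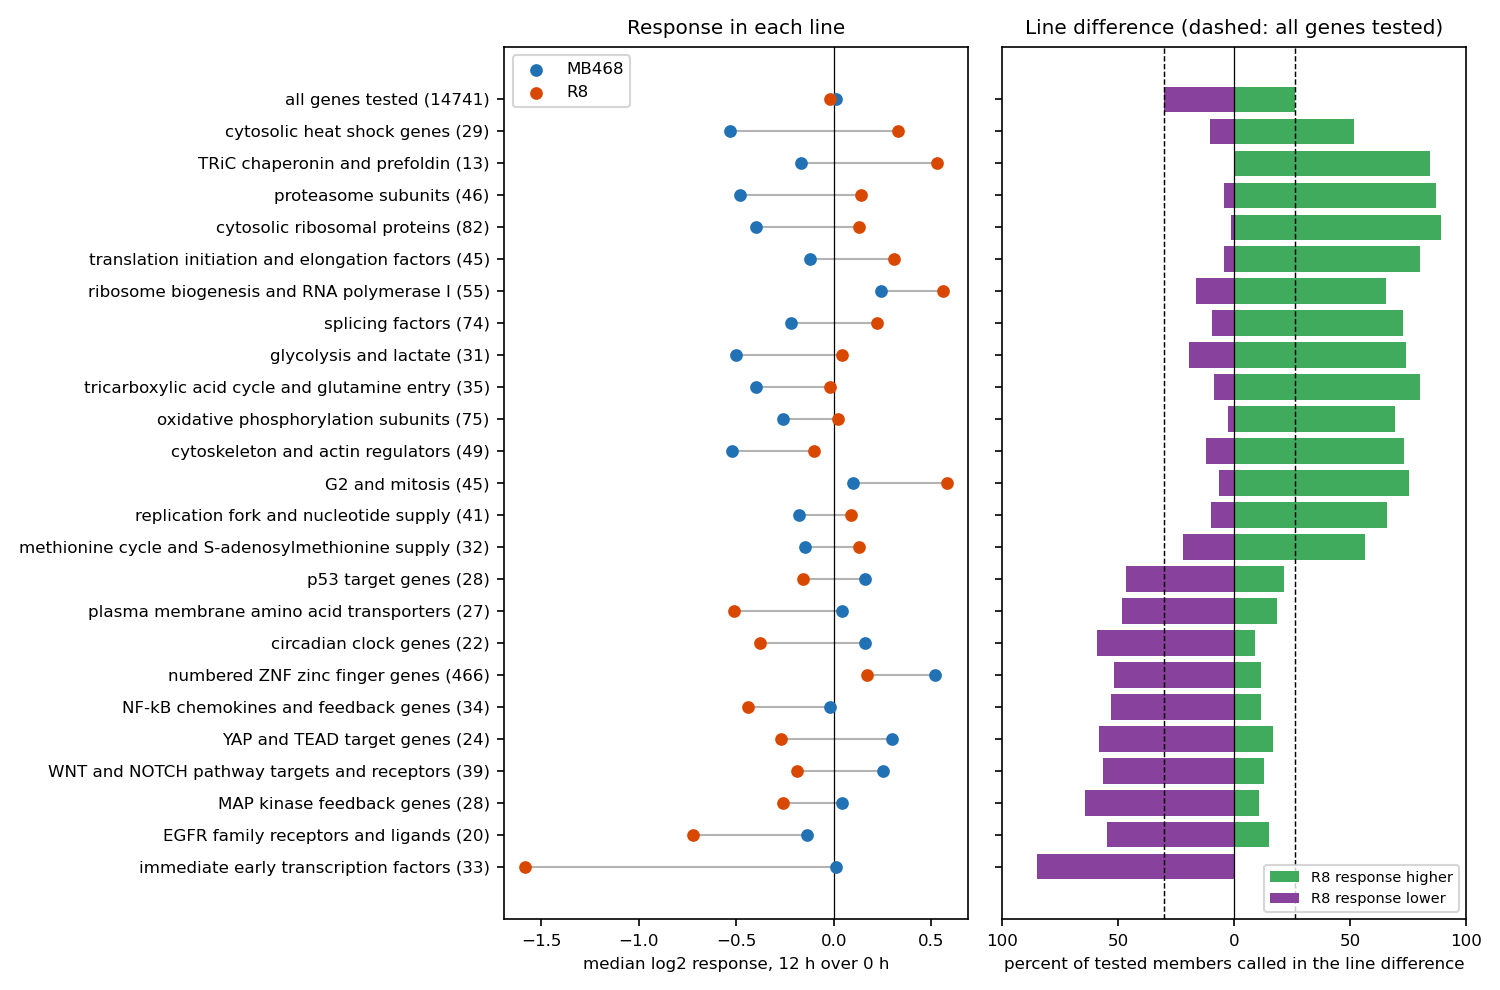
Gene lists in the 12 h response. The left panel plots the median log2 response (12 h over 0 h) of the tested members of each list in MB468 and in R8, with the number of members in brackets. The right panel plots the percent of members called in the line difference, R8 response higher to the right and lower to the left, with dashed lines at the 26.2% and 30.3% of all genes. Immediate early transcription factors stand farthest to the left, with a median response of -1.58 in R8 and 0.01 in MB468, and 73 of the 82 ribosomal protein genes were called higher.

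Abundant genes were called more often, so the lists need this background too. Genes with a mean of 100 CPM or more over the 12 libraries (2560 genes) had a median line difference of 0.18, with 52.6% called higher and 26.6% lower. Genes between 10 and 100 CPM (6965) had a median of -0.08, with 27.8% higher and 38.1% lower. Genes between 1 and 10 CPM (3318) had a median of -0.16, with 14.5% higher and 27.4% lower. The lists below were not matched for abundance, and its part in their counts was not tested.

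Immediate early transcription factors had the lowest median of the lists described. These genes are switched on within minutes by growth factors and stress and encode regulators such as the FOS, EGR and NR4A proteins. Of 33 tested members 28 had a lower R8 response, 24 of them at least 2-fold, and 5 were not called. The median line difference was -1.45, against -0.05 over all genes. In R8 30 of the 33 fell at 12 h and 3 were not called, while in MB468 13 rose and 11 fell. With spike-in scaling 24 were lower and the median was -1.20.

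EGR1, a zinc finger factor that growth factor signaling induces, moved in opposite directions in the lines. Its level was 43.7, 42.5 and 38.1 CPM in MB468 at 0 h and 198, 178 and 178 CPM at 12 h. In R8 it was 38.2, 46.1 and 44.8 CPM at 0 h and 7.86, 12.7 and 8.3 CPM at 12 h. The lines overlapped at 0 h and were far apart at 12 h, MB468 above and R8 below all 0 h libraries. The log2 response was 2.15 in MB468 and -2.18 in R8, and the line difference was -4.33 (SE 0.17, adjusted p = 1.73e-13). EGR1 lies on chromosome 5 at 138465479 to 138469303 in GRCh38.p14.

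NR4A1, an orphan nuclear receptor, fell in both lines but to different depths. It stood at 124, 85.2 and 101 CPM in MB468 at 0 h and at 35.4, 33.6 and 34.5 CPM at 12 h, against 264, 248 and 141 CPM in R8 at 0 h and 3.54, 4.21 and 3.98 CPM at 12 h. R8 was thus above MB468 before the switch in all 3 libraries and below it afterwards in all 3, although the R8 libraries at 0 h were widely spread. The line difference was -4.24 (SE 0.44, adjusted p = 2.26e-07).

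FOS, a subunit of the AP-1 transcription factor, was measured at 8.48, 8.62 and 8.96 CPM in MB468 at 0 h and 12.9, 11.5 and 12.3 CPM at 12 h. In R8 it was measured at 13, 13.2 and 11.8 CPM at 0 h and 3.3, 2.7 and 2.37 CPM at 12 h. It thus rose in MB468 and fell in R8, with no overlap between 0 h and 12 h in either line, and the line difference was -2.69 (SE 0.20, adjusted p = 1.8e-11). EGR3 did not change in MB468 beyond the threshold (log2 response 0.02, adjusted p = 0.941) and fell by 4.69 in R8, to 0.197, 0.4 and 0.415 CPM. FOSB fell in both lines, by 1.82 in MB468 and 5.15 in R8.

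The 250 bases before the annotated start of EGR1 and FOS are shown because both genes moved in opposite directions in the 2 lines and both windows hold the 6 letters TGACGT. These letters are the core of the cAMP response element, which proteins of the CREB and ATF family bind. The sequences are from RefSeq on GRCh38.p14, the window of EGR1 at chr5:138465229-138465478 and that of FOS at chr14:75278578-75278827, both on the + strand. Capitals mark TGACGT, or ACGTCA where the letters read on the other strand.
EGR1: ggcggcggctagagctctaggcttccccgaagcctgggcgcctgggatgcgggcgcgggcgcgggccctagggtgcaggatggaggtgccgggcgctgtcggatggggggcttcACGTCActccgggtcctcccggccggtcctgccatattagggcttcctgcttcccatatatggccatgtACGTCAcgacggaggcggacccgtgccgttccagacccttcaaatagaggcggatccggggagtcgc
FOS: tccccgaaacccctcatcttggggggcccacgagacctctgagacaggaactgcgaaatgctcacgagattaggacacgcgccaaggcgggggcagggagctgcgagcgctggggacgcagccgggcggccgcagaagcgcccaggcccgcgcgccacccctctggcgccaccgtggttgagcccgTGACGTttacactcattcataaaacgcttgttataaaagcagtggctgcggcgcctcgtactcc
The matches began 136 and 67 bases before the start of EGR1 and 64 bases before that of FOS. TGACGT was searched on both strands, and TGACNNNGC, given for the proteasome genes below, can overlap it. Each list with windows was searched for several motifs, of which only some are given. TGACGT was present in the windows of 9 of the 25 immediate early genes with a RefSeq entry (36%). It was in 9.91% of the 10749 tested genes with an entry and in 7.42% of all 27305 RefSeq promoters. The full element TGACGTCA was in 2 of the 25 windows (8%) and in 2.74% of those of tested genes. The serum response element, CC and 6 letters A or T before GG, was in 2 of the 25 (8%), against 0.977%. The window of EGR1 holds such stretches, which are not marked. A match describes the letters and does not show binding.

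**Figure D2:**
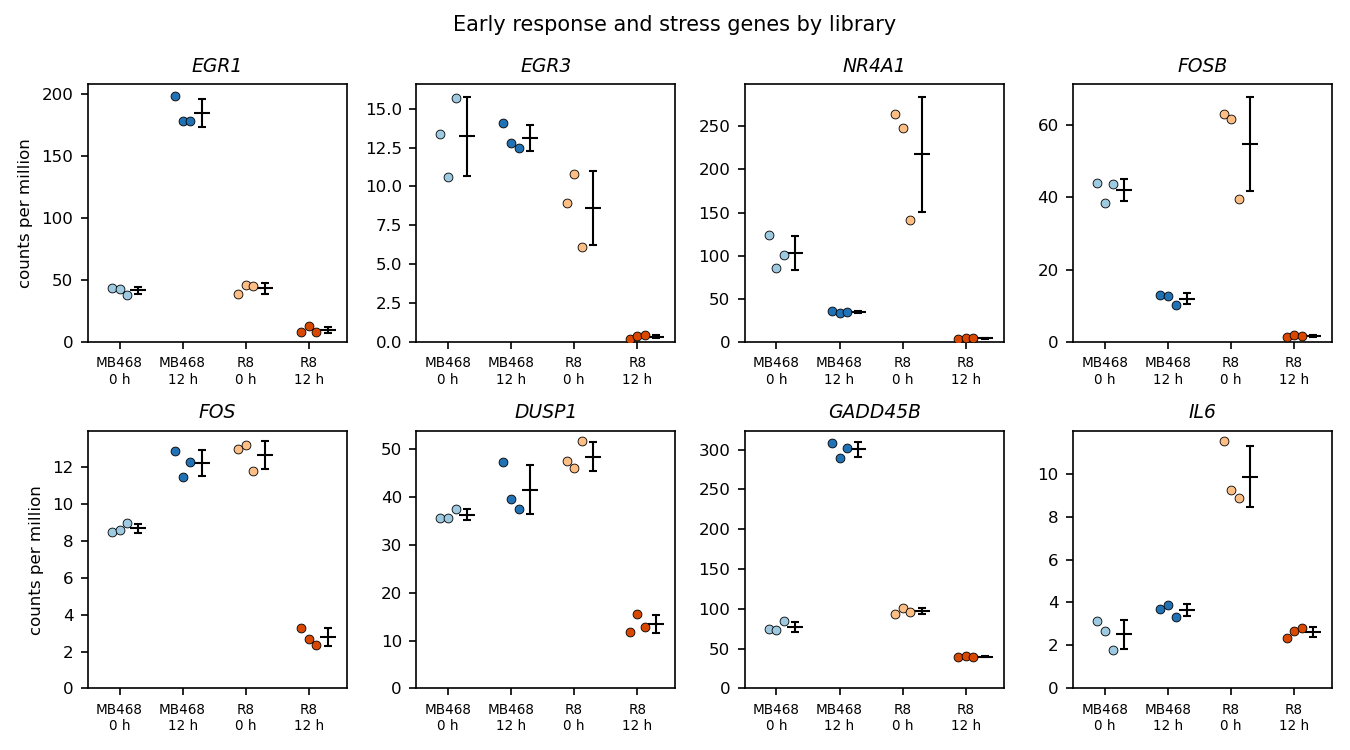
Early response and stress genes by library. Points are the 3 libraries of each group in CPM of TMM-scaled totals, on axes that start at 0, and the bar beside them is the mean ± SD. EGR1 rose from 41.4 ± 2.97 to 185 ± 11.3 CPM in MB468 and fell from 43 ± 4.22 to 9.61 ± 2.66 CPM in R8, and in all 8 panels the R8 libraries at 12 h lie below the R8 libraries at 0 h.

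Feedback genes of the MAP kinase cascade and ligands of the EGF receptor followed. The feedback genes, which include phosphatases that switch the kinases off, had a lower R8 response in 18 of 28 members and a higher one in 3, with a median of -0.53. DUSP1, a phosphatase of stress and growth factor kinases, was at 35.7, 35.6 and 37.6 CPM in MB468 at 0 h and at 47.3, 39.6 and 37.6 CPM at 12 h, and at 47.5, 46 and 51.8 CPM in R8 at 0 h and 11.8, 15.5 and 12.9 CPM at 12 h. MB468 rose by 0.20 with 1 library within the 0 h range, R8 dropped below every other library, and the line difference was -2.07 (SE 0.12, adjusted p = 5.83e-14). LIF, a cytokine of the interleukin-6 family, had a line difference of -2.82 (SE 0.33). DUSP6, a phosphatase specific for the ERK kinases, rose in both lines, with log2 responses of 0.84 and 0.82, and the line difference of -0.02 (SE 0.15, adjusted p = 0.928) was not called.

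Among 20 EGF receptor family receptors and ligands 11 had a lower and 3 a higher R8 response, with a median of -0.60. HBEGF, a ligand of the receptor, had log2 responses of -0.50 in MB468 and -2.47 in R8 and a line difference of -1.97 (SE 0.13, adjusted p = 2.84e-15). EGFR itself, which MB468 is known to carry at high copy number, had a line difference of -0.66 (SE 0.06, adjusted p = 8.48e-13) that was not called with spike-in scaling (-0.41, adjusted p = 0.0536), and the ligand AREG one of -0.91 (SE 0.25, adjusted p = 0.00207). EGF and RHBDF2 were higher, at 0.69 and 0.38. With spike-in scaling the medians of both lists stayed negative, at -0.27 and -0.32.

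Chemokines, cytokines and stress sensors moved the same way. Of 34 NF-kB chemokines and feedback genes 18 were lower and 4 higher (median -0.46), against 11 and 4 (median -0.21) with spike-in scaling. CCL20, a chemokine, was at 9.55, 8.83 and 9.27 CPM in MB468 at 0 h, 9.1, 8.77 and 7.85 CPM at 12 h, 8.96, 7.28 and 6.67 CPM in R8 at 0 h and 0.275, 0.751 and 0.747 CPM in R8 at 12 h. The first 3 groups nearly coincided, R8 at 12 h alone was low, and the line difference was -3.62 (SE 0.26, adjusted p = 9.8e-15). IL6, the inflammatory cytokine, started higher in R8 (11.5, 9.24 and 8.85 CPM against 3.12, 2.66 and 1.79 CPM) and came down to 2.36, 2.65 and 2.82 CPM, with a line difference of -2.41 (SE 0.26, adjusted p = 3.34e-09). CCL2, a chemokine, and NFKBIZ, a nuclear regulator of NF-kB, were higher (1.22 and 1.09), and CXCL8 was not called (-0.22, SE 0.29, adjusted p = 0.539). The interleukin-6 family and its SOCS feedback genes, a list added after the values of other lists had been seen, had 8 lower and 3 higher members of 20. Their median was -0.24, and with spike-in scaling it was 0.0, with 7 lower and 3 higher.

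Growth arrest genes divided the lines. In a list added after other values had been seen, 11 of 16 GADD45 and related arrest genes had a lower R8 response and 1 a higher one (median -0.90). GADD45B, a stress sensor that acts on p38 signaling, was at 74.5, 73.1 and 84.4 CPM in MB468 at 0 h and 309, 290 and 302 CPM at 12 h, and at 93.1, 101 and 96.3 CPM in R8 at 0 h and 39.9, 40.5 and 39.3 CPM at 12 h. It rose by 1.97 in MB468 and fell by 1.28 in R8, with no overlap of any group, and the line difference was -3.25 (SE 0.08, adjusted p = 1.23e-28). GADD45A, a p53 target, had a line difference of -2.22.

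The p53 targets as a list had 13 lower and 6 higher members of 28, with a median of -0.30. With spike-in scaling 9 were lower and 6 higher, and the median was -0.05. CDKN1A, which encodes the kinase inhibitor p21, fell in both lines: from 35.3, 36.6 and 40 to 11.9, 14 and 13.9 CPM in MB468 and from 106, 98.4 and 73.9 to 16.6, 16.9 and 19 CPM in R8. R8 started above MB468, both lines ended between 11.9 and 19 CPM, and the line difference was -0.92 (SE 0.22, adjusted p = 0.00162). The cyclin G gene CCNG1 was higher (0.92). Of 40 programmed cell death genes 19 were lower and 11 higher (median -0.35), against 7 and 12 (median -0.09) with spike-in scaling, among them BCL2L1, which encodes the survival protein BCL-XL (-1.51), and BMF, a death promoter of the same family (-1.44). BID, another member of that family, was higher (0.70).

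WNT and NOTCH pathway genes had 22 lower and 5 higher of 39 tested (median -0.55), with 7 further members below the count filter. With spike-in scaling 12 were lower and 5 higher, and the median was -0.28. HES2 and HEY1, transcriptional repressors of the HES and HEY family, had log2 responses of 1.31 and 2.47 in MB468, -2.21 and -0.29 in R8, and line differences of -3.52 (SE 0.60) and -2.75 (SE 0.76). The WNT factors TCF7 and TCF7L1 were higher (0.80 and 0.67). YAP and TEAD targets had 14 lower and 4 higher of 24 (median -0.47), against 10 and 3 (median -0.22) with spike-in scaling. LATS2, a kinase that restrains YAP, was at -2.10 (SE 0.09) and WWTR1, the YAP paralog also named TAZ, at 1.62 (SE 0.06). CYR61 and CTGF, classic YAP targets named here after their values were seen, fell in both lines and fell farther in R8, with line differences of -1.90 and -1.75.

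ID, SMAD and TGF-beta feedback genes had 13 lower and 5 higher of 35, with a median of -0.14. With spike-in scaling the median was 0.12, against 0.20 over all genes. The share called, 51.4%, was below the 56.5% of all tested genes. BAMBI, a decoy receptor of the pathway, was at 18.1, 17.1 and 16.9 CPM in MB468 at 0 h and 119, 108 and 114 CPM at 12 h, and at 22.7, 26.8 and 22.8 CPM in R8 at 0 h and 16.6, 19.8 and 18.4 CPM at 12 h. Only MB468 at 12 h was high, and the line difference was -3.11 (SE 0.11, adjusted p = 1.8e-24). The BMP antagonist NOG (2.84, SE 0.54, or 2.24 without MB468 0 h replicate 1) and the matrix protein TGFBI (1.06) were higher.

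Cytosolic heat shock genes, which fold and refold proteins, were lower at 12 h in MB468 in 19 of 29 cases and higher in R8 in 16. Of the 29 members 15 had a higher R8 response, 10 of them at least 2-fold, and 3 a lower one. Their median response was -0.53 in MB468 and 0.33 in R8. HSPA8, the constitutive HSP70 chaperone, was at 2877, 3057 and 2898 CPM in MB468 at 0 h and 1210, 1324 and 1399 CPM at 12 h, and at 2456, 2533 and 2601 CPM in R8 at 0 h and 3804, 3904 and 3733 CPM at 12 h. It fell by 1.17 in MB468, rose by 0.59 in R8, and the 4 groups did not overlap, with a line difference of 1.76 (SE 0.08, adjusted p = 2.31e-16).

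HSP90AA1, the inducible cytosolic HSP90, had a line difference of 1.49 (SE 0.06), and HSPD1, the mitochondrial chaperonin named after its values were seen, one of 1.43. The lower members were led by DNAJB1 (-0.86) and DNAJB2 (-0.55), co-chaperones of HSP70. TRiC chaperonin and prefoldin genes, which fold tubulin and actin and were listed after other values had been seen, were higher in 11 of 13 with 2 not called, with a median of 0.73. HSPA8 has many processed pseudogenes, so its counts can be split among copies.

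The window before HSPA8 is shown because it holds 2 copies of the letters GAANNTTC, the core of the heat shock element to which HSF1 binds. It is taken from RefSeq on GRCh38.p14 at chr11:123062137-123062386, written along the - strand on which the gene lies, and capitals mark the matches.
HSPA8: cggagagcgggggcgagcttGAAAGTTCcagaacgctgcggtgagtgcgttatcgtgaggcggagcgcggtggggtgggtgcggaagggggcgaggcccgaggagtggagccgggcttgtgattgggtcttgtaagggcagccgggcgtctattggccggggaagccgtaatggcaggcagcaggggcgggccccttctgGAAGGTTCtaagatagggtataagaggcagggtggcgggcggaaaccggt
The matches lay 230 and 50 bases before the start. GAANNTTC, a palindrome searched on both strands, was in the windows of 8 of 25 cytosolic heat shock genes (32%), in 4.19% of the tested genes with a window and in 5.85% of all RefSeq promoters.

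Proteasome subunits were higher in 40 of 46 tested members and lower in 2, with a median of 0.65. In MB468 34 of the 46 fell and 6 rose, while in R8 33 rose and 2 fell. With spike-in scaling 36 fell and 1 rose in MB468, and 12 rose and 1 fell in R8. PSMA5, a subunit of the catalytic core, was at 119, 119 and 116 CPM in MB468 at 0 h and 58.8, 59.1 and 57.4 CPM at 12 h, and at 137, 125 and 135 CPM in R8 at 0 h and 153, 161 and 155 CPM at 12 h. MB468 at 12 h stood alone at the bottom, and the line difference was 1.26 (SE 0.07, adjusted p = 1.82e-19). PSMD1, the largest subunit of the regulatory cap, fell by 0.98 in MB468 and rose by 0.15 in R8. The lower members were PSMG3 (-0.57), an assembly chaperone, and PSMD9 (-0.19), whose sign turned with spike-in scaling (0.07) and which lost the call without any of several single libraries. The letters TGACNNNGC of the antioxidant response element were in 11 of 40 proteasome windows (27.5%) and in 12% of the windows of tested genes. They were also in 4 of 17 windows of clock genes (23.5%) and 5 of 25 of immediate early genes (20%).

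Among autophagy and lysosome genes 19 were higher and 26 lower of 70 (median -0.09), against 18 and 7 (median 0.16) with spike-in scaling. ATP6V1A and ATP6V1E1, subunits of the proton pump that acidifies lysosomes, were higher (1.15 and 0.72), while ATP6V0D2 (-2.70, SE 0.55) and MITF, a transcription factor of lysosomal genes (-1.47), were lower.

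Genes of protein synthesis were mostly higher in the line difference. Of 82 tested cytosolic ribosomal protein genes 73 had a higher R8 response and 1 a lower one, RPL26L1 (-0.32), a paralog of RPL26. Their median line difference was 0.57, with 71 members that fell in MB468 and 44 that rose in R8. With spike-in scaling 75 fell in MB468 and 16 rose in R8. RPL5, which carries 5S RNA to the large subunit, was at 562, 569 and 555 CPM in MB468 at 0 h and 259, 261 and 253 CPM at 12 h, and at 494, 463 and 475 CPM in R8 at 0 h and 568, 605 and 577 CPM at 12 h. The MB468 level dropped below all other libraries, and the line difference was 1.41 (SE 0.06, adjusted p = 3.33e-23). RPL7 had a line difference of 1.55 (SE 0.06). Ribosomal protein genes have many near-identical pseudogenes, so single members are uncertain.

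Translation factors were higher in 36 of 45 and lower in 2 (median 0.52). EIF3E, a subunit of the initiation factor that recruits ribosomes, was at 445, 453 and 448 CPM in MB468 at 0 h and 199, 214 and 207 CPM at 12 h, and at 416, 391 and 417 CPM in R8 at 0 h and 574, 612 and 604 CPM at 12 h. It fell by 1.12 in MB468 and rose by 0.55 in R8, with no overlap between 0 h and 12 h in either line, and the line difference was 1.67 (SE 0.06, adjusted p = 2.42e-25). EIF1, which controls start codon choice, went the other way, with log2 responses of 0.35 in MB468 and -0.68 in R8 and a line difference of -1.03 (SE 0.06).

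Ribosome biogenesis and RNA polymerase I genes build the ribosome in the nucleolus. In MB468 41 of 55 members rose, or 15 with spike-in scaling, and in R8 51 rose, and the line difference was higher in 36 and lower in 9 (median 0.28). NPM1, a nucleolar chaperone of ribosome assembly, was at 2062, 2070 and 1968 CPM in MB468 at 0 h and 1296, 1354 and 1321 CPM at 12 h, and at 1918, 1782 and 1863 CPM in R8 at 0 h and 3300, 3427 and 3369 CPM at 12 h. Unlike most of the list it fell in MB468, and its line difference was 1.48 (SE 0.06, adjusted p = 6.91e-21). UTP20, a factor of small subunit assembly, was higher (0.95), and NOP2, a ribosomal RNA methyltransferase, was lower (-0.65). RNA polymerase III and tRNA modification genes were 15 higher and 14 lower of 42, against 15 and 2 with spike-in scaling, with POLR3G at 1.55 and POLR3D at -0.87. The 20 aminoacyl-tRNA synthetases were 6 higher and 7 lower, against 6 and 1 with spike-in scaling, with the glutaminyl enzyme QARS at 1.22 and the arginyl enzyme RARS at 1.13 against the seryl enzyme SARS at -1.14 and MARS, the methionyl enzyme, at -0.60.

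**Figure D3:**
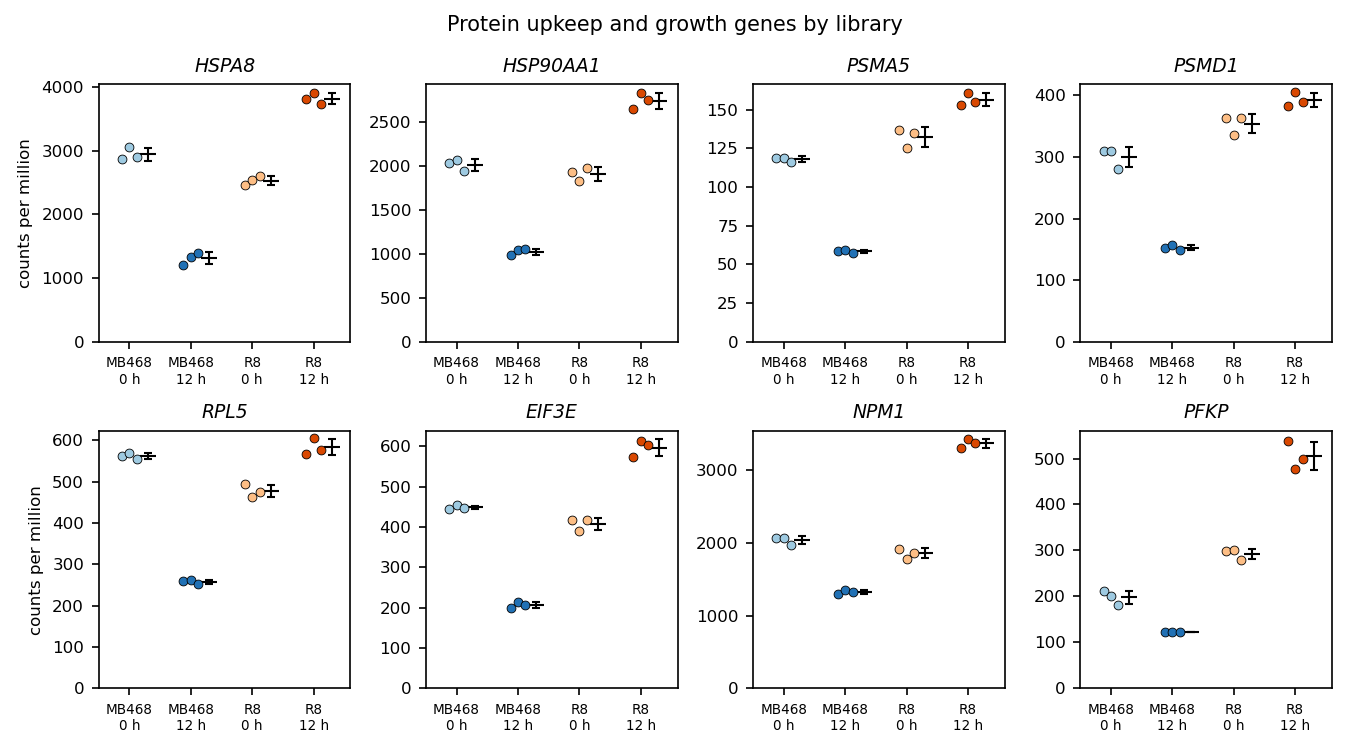
Protein upkeep and growth genes by library. Points are the 3 libraries of each group in CPM of TMM-scaled totals, on axes that start at 0, and the bar beside them is the mean ± SD. In all 8 panels the MB468 libraries at 12 h are the lowest and the R8 libraries at 12 h lie above the R8 libraries at 0 h, for HSPA8 at 1311 ± 95.3 and 3813 ± 85.8 CPM in MB468 and R8 at 12 h.

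Splicing factors were higher in 54 of 74 and lower in 7 (median 0.45), and nuclear import and export receptors, listed after other values had been seen, in 23 and 4 of 29 (median 0.44). HNRNPLL, a regulator of alternative splicing, had log2 responses of -1.90 in MB468 and 0.38 in R8 and a line difference of 2.29 (SE 0.11, adjusted p = 3.25e-20), and HNRNPL, named after its values were seen, one of 1.45. HNRNPA0 and SRSF8 were lower (-0.66 and -0.60). DDX and DHX helicases, also listed later, were 21 higher and 14 lower of 49, against 21 and 4 with spike-in scaling.

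PRPF8, the core protein of the spliceosome, had the highest line difference of the genes named by size (5.24, SE 1.26), but its libraries stood at 1.62, 18.2 and 14.2 CPM in MB468 at 0 h and at 13.6, 21 and 3.03 CPM in R8 at 12 h, against 1.56 to 2.16 CPM in the other 6 libraries. U2AF1, which recognizes the end of introns, had 1.42 to 9.21 CPM in MB468 at 0 h and 2.85 to 15.1 CPM in R8 at 12 h, and a line difference of 3.50 (SE 1.28), which without R8 12 h replicate 3 was 2.38 and not called (adjusted p = 0.138). Replicates of one group thus differed by more than the groups did. U2AF1 has a near-identical copy in the reference, between which counting can split reads, and both values are given as uncertain.

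Small nucleolar RNAs, which guide ribosomal RNA modification, were higher in 39 of 91 tested genes, 37 of them at least 2-fold, and 52 were not called, with a median of 1.11. They were listed after other values had been seen, and the 91 are those of 306 in the table that passed the count filter. The share called, 42.9%, was below the 56.5% of all tested genes, of which 26.2% were called higher. The libraries were poly(A) selected and most of these RNAs lack a poly(A) tail and lie inside introns of host genes, so that reads of the host cannot be told apart from them. Their summed level was 128 to 133 CPM in MB468 at 0 h, 78.5 to 84.8 CPM at 12 h, 98.1 to 111 CPM in R8 at 0 h and 121 to 127 CPM at 12 h. Their host genes were higher in 13 and lower in 6 of 25, with SNHG4 at 1.51 and SNHG11 at -1.31. Histone genes, most of which also lack the tail, were lower in 5 of 32 (15.6%), below the 30.3% of all tested genes, and 27 were not called. The 5 were HIST1H1C (-1.48), HIST1H2AC (-1.37), HIST1H2BD (-1.18), HIST1H2BK (-0.46) and HIST1H3H (-1.44).

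Glycolysis was the metabolic list with the highest median. Of 31 tested glycolysis and lactate genes 23 were higher and 6 lower, with a median of 0.58. In MB468 24 of them fell and 2 rose, while in R8 13 rose and 12 fell, or 5 and 7 with spike-in scaling. PFKP, the platelet form of phosphofructokinase, was at 211, 201 and 182 CPM in MB468 at 0 h and 123, 122 and 123 CPM at 12 h, and at 298, 300 and 279 CPM in R8 at 0 h and 539, 478 and 500 CPM at 12 h. The lines already differed at 0 h and moved apart, with a line difference of 1.48 (SE 0.06, adjusted p = 7.92e-22). LDHA, lactate dehydrogenase, named after its values were seen, went from 1034 ± 46.3 to 667 ± 18.9 CPM in MB468 and from 1685 ± 102 to 2782 ± 111 CPM in R8 (SD, n = 3). PDK4, a kinase that inhibits pyruvate dehydrogenase, was lower (-3.19, SE 0.35, adjusted p = 4.06e-10), while HK2, hexokinase, differed by 0.19.

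Mitochondrial energy genes had a higher R8 response by smaller amounts. Oxidative phosphorylation subunits were higher in 52 and lower in 2 of 75 (median 0.30). Over all genes with a mean of 100 CPM or more, 52.6% were higher and the median was 0.18. The median response of the subunits was -0.26 in MB468 and 0.02 in R8. In MB468 59 fell, and in R8 17 rose and 14 fell, or 2 and 1 with spike-in scaling. ATP5C1, a subunit of the ATP synthase, led with 1.09 (SE 0.06), and the lower pair, COX8A (-0.16) and NDUFA13 (-0.25), turned sign with spike-in scaling (0.10 and 0.01), and COX8A lost the call without most single libraries. Tricarboxylic acid cycle and glutamine entry genes were higher in 28 and lower in 3 of 35 (median 0.33), IDH2 at 0.79 and MDH1 at 0.73 among them, against the glutamine transporter SLC1A5 at -0.86. Pentose phosphate and glucosamine genes were higher in 13 and lower in 2 of 19. Mitochondrial ribosomal proteins were 29 higher and 16 lower of 76 (median 0.03), but with spike-in scaling 30 were higher and the lower calls were lost (median 0.29). Cytoskeleton and actin regulators were higher in 36 and lower in 6 of 49, led by TUBB, a beta tubulin (1.73), and MSN, which links actin to the membrane (1.52).

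Genes of G2 and mitosis were higher in 34 of 45 and lower in 3 (median 0.44). In MB468 23 members rose and 16 fell, against 8 and 18 with spike-in scaling, and in R8 38 rose and 2 fell. CCNB1, the cyclin that drives entry into mitosis, was at 175, 175 and 180 CPM in MB468 at 0 h and 149, 153 and 145 CPM at 12 h, and at 173, 161 and 185 CPM in R8 at 0 h and 303, 316 and 301 CPM at 12 h. The lines overlapped at 0 h, MB468 fell by 0.24 and R8 rose by 0.83, with a line difference of 1.07 (SE 0.07, adjusted p = 7.52e-17). HMMR, a spindle protein, and DLGAP5, which stabilizes spindle microtubules, had line differences of 1.14 (SE 0.08) and 1.12 (SE 0.08). CDC25B, a phosphatase that activates mitotic kinases, and PKMYT1, a kinase that restrains them, were lower (-0.61 and -0.39).

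Origin licensing and firing genes were higher in 20 and lower in 5 of 32 (median 0.24), and replication fork and nucleotide supply genes in 27 and 4 of 41 (median 0.32). MCM6, a subunit of the replicative helicase, was at 150, 145 and 150 CPM in MB468 at 0 h and 68.1, 74.3 and 71 CPM at 12 h, and at 153, 153 and 160 CPM in R8 at 0 h and 151, 159 and 156 CPM at 12 h. The R8 response of 0.00 was not called and MB468 fell below all other libraries, with a line difference of 1.06 (SE 0.06, adjusted p = 1.8e-18). CDC6, the licensing factor that loads this helicase, differed by 0.21 (SE 0.06, adjusted p = 0.00419).

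IMPDH2, which commits purines to guanine nucleotides, had the lowest adjusted p among the higher genes named by size, given with its levels of 181, 178 and 181 CPM in MB468 at 0 h, 53.4, 55.3 and 57.5 CPM at 12 h, 152, 154 and 154 CPM in R8 at 0 h and 219, 204 and 205 CPM at 12 h. Its line difference was 2.15 (SE 0.06, adjusted p = 1.49e-28). PAICS, an enzyme of purine synthesis, was also higher (1.08), while FEN1, which removes flaps on the lagging strand, rose by 1.02 in MB468 and was lower (-0.80). G1 cyclins, CDK inhibitors and E2F factors were 12 higher and 7 lower of 29, against 12 and 3 with spike-in scaling, with the inhibitor CDKN2B at -1.82 and the cyclin CCNE2 at 1.01. Homologous recombination and Fanconi anemia genes were 9 higher and 7 lower of 31, with a median of -0.03. With spike-in scaling 9 were higher and 4 lower, and the median was 0.23, against 0.20 over all genes. The share called, 51.6%, was below the 56.5% of all tested genes.

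The window before HMMR is shown because the letters TTTGAA, known as the cell cycle genes homology region in promoters of mitotic genes, occur in it as a tandem pair. It lies at chr5:163460382-163460631 on the + strand of GRCh38.p14 and is taken from RefSeq, with the matches in capitals.
HMMR: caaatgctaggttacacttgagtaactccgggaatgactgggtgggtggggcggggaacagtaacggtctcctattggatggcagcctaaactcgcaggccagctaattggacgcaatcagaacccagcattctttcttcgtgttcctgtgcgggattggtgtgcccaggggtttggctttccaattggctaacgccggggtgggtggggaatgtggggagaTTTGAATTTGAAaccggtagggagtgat
They began 28 and 22 bases before the start. TTTGAA, searched on both strands, was in 18 of 35 windows of G2 and mitosis genes (51.4%). It was in 8.56% of the windows of tested genes and in 13.6% of all RefSeq promoters. The letters CCAAT were in 26 of the 35 windows (74.3%) and in 34.7% of those of tested genes.

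Genes of the methionine cycle and of S-adenosylmethionine supply moved both ways. Of 32 tested genes 18 were higher and 7 lower, with a median of 0.21. MAT2A, which makes S-adenosylmethionine from methionine, was at 379, 380 and 397 CPM in MB468 at 0 h and 1489, 1551 and 1511 CPM at 12 h, and at 413, 439 and 391 CPM in R8 at 0 h and 617, 643 and 679 CPM at 12 h. It rose in both lines, by 1.98 in MB468 and 0.64 in R8, with a line difference of -1.34 (SE 0.07, adjusted p = 3.48e-19). CBS and CTH, the 2 enzymes that turn homocysteine into cysteine, had line differences of -1.38 (SE 0.17) and -1.48 (SE 0.19). MTR, methionine synthase, had log2 responses of -0.61 in MB468 and 0.24 in R8 and a line difference of 0.85 (SE 0.08, adjusted p = 4.1e-12), and SMS, spermine synthase, one of 0.74.

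Amino acid transporters were lower in 13 of 27 and higher in 5, with a median of -0.41. The median was -0.11 without R8 0 h replicate 1, -0.14 without MB468 0 h replicate 2 and -0.13 with spike-in scaling. SLC7A5, the light chain of the transporter that imports methionine and leucine, was at 1908, 1908 and 1968 CPM in MB468 at 0 h and 3628, 3543 and 3740 CPM at 12 h, and at 2509, 2666 and 2212 CPM in R8 at 0 h and 1011, 977 and 953 CPM at 12 h. It rose by 0.92 in MB468 and fell by 1.33 in R8, and the groups did not overlap, with a line difference of -2.24 (SE 0.10, adjusted p = 6.07e-14). Its partner SLC3A2 and the arginine transporter SLC7A1, named after their values were seen, moved alike, with line differences of -1.53 and -1.57. SLC7A2 and SLC16A10 were higher (1.68 and 1.18), and SLC7A11, the cystine transporter, fell in both lines with a line difference of -0.68 (SE 0.17, adjusted p = 0.0019).

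Folate, serine and glycine enzymes were 8 higher and 9 lower of 27 (median -0.12), against 8 and 3 (median 0.14) with spike-in scaling. GCSH of the glycine cleavage system (1.46) and the folate enzyme MTHFD1 (0.87) were higher, the aminotransferases GPT2 (-0.87) and GOT1 (-0.77) were lower, and MTHFD2 was not called (-0.08, adjusted p = 0.351). PI3K, mTORC1 and insulin genes were lower in 21 and higher in 4 of 43, with a median of -0.18. With spike-in scaling 6 were lower and 6 higher, and the median was 0.07, against 0.20 over all genes. The called members included IRS1, the insulin receptor substrate (-1.43), RRAGC, a GTPase that brings mTORC1 to lysosomes (-1.32), and AKT1 (0.40).

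Histone lysine methyltransferases and demethylases were lower in 27 and higher in 11 of 53, with a median of -0.16. With spike-in scaling the median was 0.10, against 0.20 over all genes. In MB468 34 members rose and in R8 35 rose, and with spike-in scaling 10 were higher and 6 lower in the line difference. KMT5C, which methylates lysine of histone H4, had log2 responses of 0.62 in MB468 and -1.53 in R8 and a line difference of -2.15 (SE 0.15), while EED, a subunit of polycomb complex PRC2, and KDM1A were higher (1.01 and 0.95). EZH2, the catalytic subunit of PRC2, differed by 0.33 (SE 0.06) and DNMT1, the maintenance DNA methyltransferase, by 0.26 (SE 0.05).

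RBM15, a subunit of the RNA adenosine methyltransferase complex, was at 34.9, 34.5 and 36.6 CPM in MB468 at 0 h and 130, 126 and 126 CPM at 12 h, and at 29.1, 32.1 and 31.7 CPM in R8 at 0 h and 31.2, 30.5 and 32.5 CPM at 12 h. MB468 at 12 h alone was high, and the line difference was -1.83 (SE 0.08, adjusted p = 1.56e-21). Polycomb and remodeling genes as a list were 17 higher and 17 lower of 49, against 17 and 3 with spike-in scaling. MYC, the growth regulator, had a line difference of -0.65 (SE 0.07, adjusted p = 4.75e-09), with log2 responses of 0.37 in MB468 and -0.27 in R8, and was not called with spike-in scaling (-0.39, adjusted p = 0.0686).

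Epithelial genes held several of the extreme values. Keratins and cornified envelope genes were 13 higher and 12 lower of 43, against 16 and 6 with spike-in scaling, with 11 further members below the count filter. PKP1, a desmosomal plaque protein of stratified epithelia, was at 1.89, 1.47 and 1.73 CPM in MB468 at 0 h and 17.3, 18.9 and 15.7 CPM at 12 h, and at 2.75, 3.34 and 2.13 CPM in R8 at 0 h and 1.61, 1.65 and 1.04 CPM at 12 h. It rose by 3.35 in MB468 and fell by 0.95 in R8, and its line difference was -4.30 (SE 0.26, adjusted p = 2.71e-17). TGM1, which crosslinks the cornified envelope, was lower (-2.06), KRT4 and KRT19 were higher (1.55 and 1.22), and KRT5 was not called (0.05, adjusted p = 0.44). Breast lineage factors were 12 higher and 17 lower of 35, with ALDH1A3 at 1.36 against GATA3 at -1.48 and GRHL3 at -1.30. Their median was -0.21, or 0.05 with spike-in scaling, against -0.05 and 0.20 over all genes.

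VIM, the intermediate filament of mesenchymal cells, was at 33.6, 32.4 and 33.5 CPM in MB468 at 0 h and 17.8, 22.3 and 24.8 CPM at 12 h, and at 43.3, 43.7 and 45.6 CPM in R8 at 0 h and 175, 150 and 159 CPM at 12 h. R8 at 12 h alone was high, and the line difference was 2.49 (SE 0.11, adjusted p = 6.31e-18). The other mesenchymal genes were mixed, 7 higher and 4 lower of 22 with VIM counted, among them the gelatinase MMP2 (1.39) and the urokinase receptor PLAUR (-1.57). COL5A1, a fibrillar collagen, had a line difference of 3.73 (SE 0.78), which rests on R8 libraries at 0 to 0.415 CPM, while MB468 stood at 14, 15.1 and 13.1 CPM at 0 h and 6.61, 6.92 and 7.49 CPM at 12 h. Its fitted response in R8 depends on the prior count, and without R8 0 h replicate 3, the 1 library above 0 in its group, the line difference was 6.48. Collagens, laminins and integrins were 13 higher and 13 lower of 56, against 15 and 6 with spike-in scaling, with LAMB1 at 1.25 and LAMA2 at -2.63. The share called was 46.4% in this list and 50% in the mesenchymal list, below the 56.5% of all tested genes. The fibroblast and endothelial markers, whose summed level was lower at 12 h than at 0 h in both lines, had 4 lower of 9 tested members, CDH5 (-1.86), KDR (-1.53), TEK (-4.72) and VWF (-2.64), with 5 not called. The value of TEK was -3.01 and no longer called without R8 0 h replicate 3, and -7.29 without MB468 0 h replicate 2. Of the 4 tested immune markers CD68 was higher (0.72) and the others were not called.

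DHRS2, a short-chain dehydrogenase, had the lowest line difference of the genes named by size. It was at 1.62, 1.33 and 1.92 CPM in MB468 at 0 h and 50.1, 45.9 and 52.7 CPM at 12 h, and at 5.23, 5.16 and 4.43 CPM in R8 at 0 h and 4.09, 4 and 2.53 CPM at 12 h. It rose by 4.97 in MB468 and fell by 0.49 in R8, with a line difference of -5.46 (SE 0.21, adjusted p = 3.29e-23). The other genes of this kind were INHBE, an activin subunit (-3.66), TGM4 (-3.61, or -2.73 without R8 0 h replicate 2), LINC01447 (-3.59) and SGPP2, a sphingosine phosphate phosphatase (-3.41), on the lower side, and BLACAT1 (3.05), LINC01132 (2.63), PCOLCE2 (2.36), HS6ST2 (2.22), CASP14 (2.16) and TEX15 (2.16) on the higher side.

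**Figure D4:**
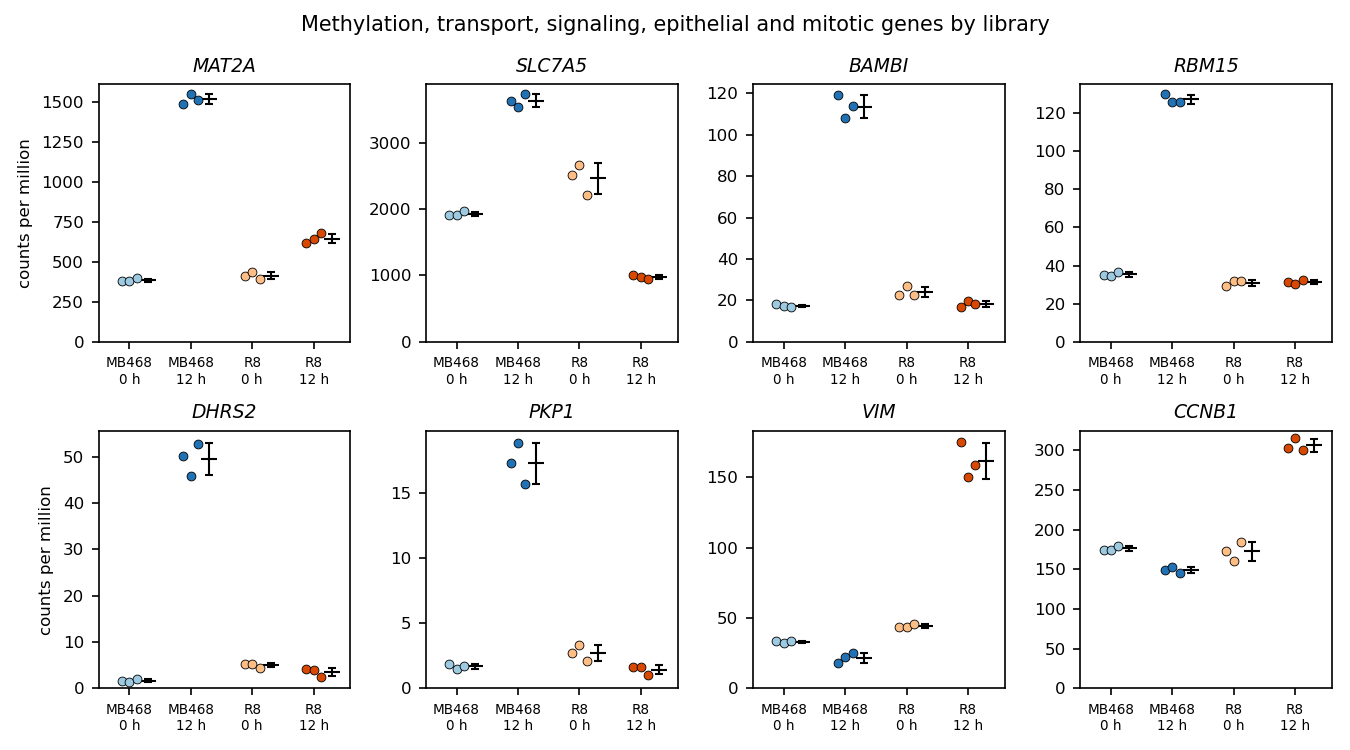
Methylation, transport, signaling, epithelial and mitotic genes by library. Points are the 3 libraries of each group in CPM of TMM-scaled totals, on axes that start at 0, and the bar beside them is the mean ± SD. MB468 at 12 h is the highest group for MAT2A, SLC7A5, BAMBI, RBM15, DHRS2 and PKP1, and R8 at 12 h is the highest for VIM and CCNB1.

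Hypoxia-inducible factor targets were 11 higher and 9 lower of 30, with AK4 (1.09) and P4HA1 (0.90) against ADM (-2.00) and VEGFA, the vascular growth factor (-1.24). Their median was -0.14, or 0.12 with spike-in scaling (11 higher and 5 lower), against -0.05 and 0.20 over all genes. NRF2 targets and glutathione genes were 15 higher and 17 lower of 41, with a median of -0.09. With spike-in scaling 15 were higher and 3 lower, and the median was 0.17, against 0.20 over all genes. Most members fell in each line, 27 in MB468 and 28 in R8. GSTO1 was higher (1.25), AKR1B10 was lower (-1.23), and HMOX1, heme oxygenase, fell in both lines without a called difference (-0.26, adjusted p = 0.138). Metallothioneins and zinc transporters were 4 higher and 7 lower of 22, against 5 and 2 with spike-in scaling, with the importer SLC39A10 at 1.19 and the exporter SLC30A1 at -1.69. Of the 22, 50% were called, against 56.5% of all tested genes. Of 11 aryl hydrocarbon receptor genes 4 were higher and 5 lower, against 4 and 2 with spike-in scaling, and 8 fell in each line, CYP1A1 with a line difference of -1.73 (SE 0.11) and CYP1B1 with 0.61 (SE 0.06).

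Clock genes were lower in 13 of 22 and higher in 2, with a median of -0.42. With spike-in scaling 7 were lower and 2 higher, and the median was -0.16. NFIL3, a repressor of clock outputs, rose in MB468 (log2 response 2.24) and had a line difference of -2.37 (SE 0.14), NR1D2, a repressor of the clock loop, one of -2.04 (SE 0.09), and the activators ARNTL2 and CLOCK were higher (0.93 and 0.34). PER1 and PER2, the core repressors named after their values were seen, fell in both lines and fell farther in R8 (-1.89 and -1.64). Interferon-stimulated genes were 5 higher and 9 lower of 38 (median 0.01), against 7 and 5 with spike-in scaling, IFIT2 at -2.56 (SE 0.40) and IFIH1, a sensor of double-stranded RNA, at -1.28 against OAS1 at 0.94, and IFIT1 was not called (1.06, SE 0.56, adjusted p = 0.104). Antigen presentation genes were 6 higher and 4 lower of 15, against 6 and 1 with spike-in scaling. Nuclear receptors and coactivators were 3 higher and 8 lower of 29, against 3 and 2 with spike-in scaling, NCOA1 at -1.08 and PPARD at -1.01 among the lower. The share called was 37.9% in this list and 36.8% among interferon-stimulated genes, below the 56.5% of all tested genes.

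Numbered zinc finger genes, mostly KRAB repressors of transposons, were the list with the most tested genes. Of 466 tested members 242 were lower and 54 higher, with a median of -0.41, and 309 rose in MB468 against 176 in R8. With spike-in scaling 112 were lower, 65 were higher and the median was -0.16. ZNF596 (-2.36) and ZNF750, an epidermal differentiation factor (-3.07), were lower and ZNF33B (2.01) and ZNF594 (1.36) higher. Of 904 numbered long intergenic noncoding genes 187 passed the count filter, of which 48 were lower and 14 higher. The share called, 33.2%, was below the 56.5% of all tested genes. With spike-in scaling 28 were lower and 17 higher. LINC00624 was at -4.66 (SE 0.56) and LINC01447, given above, at -3.59.

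The line difference was also computed at 0.5 h and at 2 h against the same 0 h libraries, so the 3 time points are not independent. It was called in 428 genes at 0.5 h (2.9%) and in 747 at 2 h (5.07%). Immediate early factors had a median of -0.28 at 0.5 h and -1.14 at 2 h, and MAP kinase feedback genes one of 0.06 and -0.47. Heat shock genes stood at 0.06 and 0.05, proteasome subunits at 0.05 and -0.03, glycolysis genes at -0.04 and -0.03 and genes of G2 and mitosis at 0.02 and -0.06. The early response lists were thus apart at 2 h, and the folding, degradation, glycolysis and mitotic lists had medians near 0 at 0.5 h and 2 h. No time between 2 h and 12 h was measured.

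Several single genes followed the same order, while HSPA8 was already called at 2 h. EGR1 rose in both lines at 0.5 h, to 1243, 1245 and 1428 CPM in MB468 and 775, 840 and 883 CPM in R8. At 2 h it was still at 550, 579 and 559 CPM in MB468 and had come down to 26.7, 31.1 and 28.3 CPM in R8, below the R8 level at 0 h. The line difference was -0.69 at 0.5 h (adjusted p = 0.00979) and -4.32 at 2 h (adjusted p = 1.13e-12). GADD45B (-1.63), DUSP1 (-1.94) and IL6 (-2.12) were also lower at 2 h, whereas PSMA5 (0.02), NPM1 (-0.02), CCNB1 (0.08) and VIM (-0.01) were not called, and HSPA8 was at 0.49 (adjusted p = 0.000145).

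**Figure D5:**
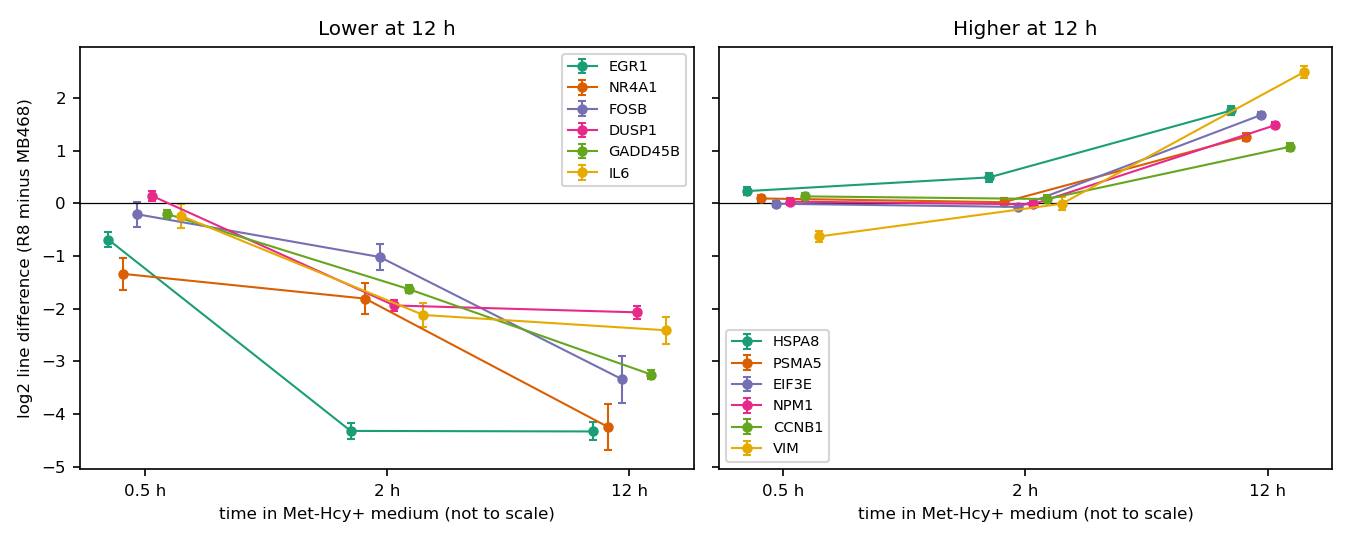
Line difference over time. Points are the log2 line difference of each gene (R8 minus MB468, each against its own 0 h libraries) with bars of 1 SE, at 0.5, 2 and 12 h on an axis that is not to scale. EGR1 was at -4.32 at 2 h and -4.33 at 12 h, while VIM was at -0.01 at 2 h and 2.49 at 12 h.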

How the data were processed

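Single-end reads of poly(A)-selected RNA with ERCC spike-ins were aligned by the authors with HISAT2 2.1.0 to GRCh38 and the spike-in sequences and counted per gene with featureCounts (Subread 1.5.3); per the labels these raw counts, whole numbers without normalization, were deposited for 24 libraries. The library kit does not mark strand. The deposited normalized table and the table of the authors' own DESeq2 fold changes and p-values were not used. From the raw counts the main test was edgeR 4.0.16's quasi-likelihood F test (R 4.3.3, limma 3.58.1) with robust dispersion, TMM factors, a mean for each of 8 groups (16 residual degrees of freedom) and filterByExpr with a minimum count of 10 and a minimum total of 15, which left out 11904 genes holding 0.035% of counts. A call is a Benjamini-Hochberg adjusted p under 0.05 over the 14741 tested genes, and the SE is the log2 value over the square root of F.

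The labels number the libraries of a group 1 to 3 without saying that they were separate cultures, so p-values measure the spread between these libraries, which may be technical. Intervals of single counts would cover counting error only, and with 16111002 or more counts per library the replicate spread sets the precision. Genes were named by 3 rules: the 12 highest and 12 lowest called line differences with a group mean of at least 5 CPM; up to 2 called members in each direction of each list with a group mean of at least 1 CPM; and 24 genes taken whatever their values, where tested. Members and lists were chosen with earlier results of these data known. There were 58 gene lists at the outset and 7 were added after the values of others had been seen. The script was tested on simulated data. The alternatives were DESeq2 1.42.0, its size factors, no count filter, a minimum of 10 counts in every library, spike-in scaling, a spike-in covariate, the 12 libraries alone, an adjusted p under 0.01, a replicate block, each replicate left out and libraries thinned to 1 depth. A few named genes are not reported here.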

Additional observations from a re-analysis of the deposited data

Results flagged for a closer look

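The results below drew attention because the 12 h response differed between the lines by the test of the difference itself, which was called in 8336 genes. With 56.5% of tested genes called, this criterion is met by many genes and singles out only the most extreme by size. On the lower side it marked DHRS2 (-5.46), EGR3 (-4.71), EGR1 (-4.33), PKP1 (-4.30), NR4A1 (-4.24), INHBE (-3.66), CCL20 (-3.62), TGM4 (-3.61), LINC01447 (-3.59), SGPP2 (-3.41), FOSB (-3.34) and GADD45B (-3.25), each as a log2 line difference. On the higher side it marked PRPF8 (5.24), COL5A1 (3.73), U2AF1 (3.50), BLACAT1 (3.05), LINC01132 (2.63), VIM (2.49), PCOLCE2 (2.36), HNRNPLL (2.29), HS6ST2 (2.22), CASP14 (2.16), TEX15 (2.16) and IMPDH2 (2.15). PRPF8 and U2AF1 had replicates of one group as far apart as the groups, and COL5A1 was at or near 0 in R8.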

How the results depend on the processing

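With library totals set by the spike-in RNAs, 3 named genes turned sign, COX8A (0.10), NDUFA13 (0.01) and PSMD9 (0.07), the genes with a lower R8 response numbered 1745, and 5887 genes were called in the R8 response. Under that scaling 101 genes were called in the line difference at 0.5 h, and with an adjusted p under 0.01 the calls were 232 at 0.5 h and 431 at 2 h. Leaving out 1 replicate at a time gave 7929 to 8169 calls at 12 h, 3752 to 4128 of them higher and 3938 to 4243 lower, 1662 to 1775 at least 2-fold, 9852 to 10021 calls in the MB468 response, 8361 to 8717 in the R8 response, 577 to 799 at 2 h and 304 to 481 at 0.5 h. A replicate block in the fit gave 3839 higher and 4461 lower genes, and of 250 named genes only ABCF1 (adjusted p = 0.0658) and ALDH3A1 (0.0538) lost the call. Over 6391 genes the deviations of same-numbered libraries from their group had a mean correlation of -0.0372 (from -0.387 to 0.316). For other numbers the mean was 0.0188, with values from -0.415 to 0.402. With 3 libraries a group the deviations are tied to each other. These values therefore do not settle whether the numbers pair the libraries.

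Of the 244 named genes that were called, 32 lost the call with spike-in totals, 4 with DESeq2's Wald test, 2 with its size factors, 15 at an adjusted p under 0.01 and 16 when libraries were thinned to 11713037 counts, an alternative chosen after seeing the data. With at least 10 counts required in every library, 212 of the 250 named genes could be tested, and the 207 of them that had been called kept the call. HMOX1 gained a call without a count filter (adjusted p = 0.00764) and with the 12 libraries alone (0.0206), and IFIT1 with spike-in totals (0.0312) and thinning (0.0362). Named genes that the report gives as lower and that were not called with spike-in totals were COX8A, NDUFA13 and PSMD9, which turned sign, and CDC25B, DNAJB2, EGFR, HNRNPA0, MARS, MYC, NOP2, PKMYT1, PSMG3, RPL26L1, SLC7A11 and SRSF8. Without 1 library, COX8A (-0.07 without MB468 0 h replicate 2) and PSMD9 (-0.13 without R8 0 h replicate 1) were among those that lost the call. The causes were not tested. The design has 3 libraries a group and no 12 h library in Met+ medium, R8 is 1 clone, and the scaling cannot be settled from these counts.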
